A study of Mus musculus with 5 samples.

Results

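The 39 genes described here are all the rows of the deposited table whose symbols name a protein-coding gene of the mouse HoxA, HoxB, HoxC or HoxD cluster, out of 23857 genes listed. They were chosen by symbol alone. Bulk RNA-seq was done on YFP+ stromal cells of the oviduct (fallopian tube), sorted from 5 young adult females with 1 library for each animal. Controls were 2 animals, numbered 2 and 3, of the genotype Pdgfra-Cre;R26Y, labelled wild-type. Mice 1, 2 and 3 of the other group had the genotype Pdgfra-Cre;Esr1(fl/fl);R26Y, so Cre and reporter were common to both groups and the floxed alleles of Esr1, the estrogen receptor alpha gene, set them apart. Pdgfra regulatory sequence, active in mesenchyme, drives Cre, and the reporter marks any cell in which Cre has acted at some time. The comparison asks which genes differ when Esr1 is deleted in stromal cells.

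Values are TPM, a share of the library that is scaled for transcript length, so levels of different genes can be set side by side. The table keeps no total depth. Genes at 1 TPM or more numbered 19061 and 19432 in control mice 2 and 3. In mice 1, 2 and 3 of the other group they numbered 17148, 18190 and 15841, fewer than in both controls. Esr1 was at 83.3 and 77.6 TPM in control mice 2 and 3, whereas the libraries labelled knockout, from mice 1, 2 and 3, had 28.9, 85.0 and 170 TPM. Only mouse 1 of that group lay below the controls, so the label is not borne out by the gene level in mice 2 and 3, and per-gene values do not show whether floxed exons were lost. The group is called knockout-labelled for that reason. Pdgfra was at 165 to 298 TPM over the 5 libraries. Knockout-labelled mouse 1 stood apart from the other members of its group in Hox levels too, and the counts of genes called, with each gene whose call depends on it, are given with and without it. The stage of the estrous cycle is not given in the sources used here.

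The sort was checked against markers of other cell types, whose summed levels differed between libraries. The 8 stromal markers (among them Dcn, Col1a1 and Lum) summed to 22035 and 17912 TPM in control mice 2 and 3 and to 15730, 11876 and 13313 TPM in knockout-labelled mice 1, 2 and 3. A large part was Dcn, at 10110 and 9066 TPM and at 9344, 6764 and 7024 TPM. The list was not uniform: 6 markers had a lower mean log2 level in the knockout-labelled group and 2, among them Pdgfra, a higher one. The 10 epithelial markers summed to 3028 and 3328 TPM in the controls, 2156 TPM in knockout-labelled mouse 1, and 12058 and 13148 TPM in mice 2 and 3, most of it Ovgp1, the oviductal glycoprotein of secretory cells. The 8 immune markers summed to 1983 and 2560 TPM in the controls and to 1503, 980 and 688 TPM in the knockout-labelled mice. Most of that was Lyz2, and 7 of the 8 had a lower and 1 a higher mean log2 level in the knockout-labelled group. The 3 mesothelial markers summed to 426 and 338 TPM in the controls and to 131 to 199 TPM in the knockout-labelled mice, and 4 granulosa cell markers to 20.6 and 25.9 TPM against 48.5 to 73.2 TPM. The 6 smooth muscle markers summed to 366 to 551 TPM, 5 endothelial markers to 135 to 210 TPM and 3 Schwann cell markers to 7.12 to 11.4 TPM over the 5 libraries. The 4 erythroid genes were listed at 0 in every library. These are bulk values: fewer cells of a type and less RNA per cell cannot be told apart.

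Hox genes encode homeodomain transcription factors that give cells along the head-to-tail axis their positional identity. They lie in 4 clusters, in which gene order matches the order of expression along the axis, and genes of the same number in different clusters (paralogs) are close relatives. High numbers mark posterior positions. In the developing female tract, Hoxa9 is known for the oviduct, Hoxa10 for the uterus, Hoxa11 for the uterus and cervix and Hoxa13 for the vagina. HOX proteins bind DNA with cofactors of the PBX, MEIS and PKNOX families, and retinoic acid is a classical activator of the anterior genes.

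In the mm10 build that the submitters' processing notes name (GENCODE M21 annotation, GRCm38), HoxA occupies 105.3 kb of chromosome 6 from 52155590 to 52260880, and HoxB 173.9 kb of chromosome 11 from 96194316 to 96368256. HoxC occupies 115.8 kb of chromosome 15 from 102921103 to 103036852, and HoxD 96.8 kb of chromosome 2 from 74668310 to 74765142. The genes are packed closely enough that annotated exons overlap. No strand setting is stated for the counting, so reads from a gene and its antisense partner cannot be told apart for 10 members. The largest antisense overlaps are 52.9% of the exon bases of Hoxb3 and 27.3% of those of Hoxb2 (both with Hoxb3os), and 35.0% of Hoxa11 (with Hoxa11os). Hoxd3 and Hoxd4 share 62.3% and 52.3% of their exon bases with transcripts on the same strand, among them each other and Gm28230, and their separate levels are uncertain.

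Promoter sequences are shown for Hoxa9, Hoxa10 and Hoxb8, which stood among the genes furthest from the controls in knockout-labelled mice 2 and 3, the first pair lower and Hoxb8 higher. Each is the RefSeq window (GRCm38.p6) of 250 bases before and 50 bases after an annotated start, read 5′ to 3′ on the gene's strand. Hoxa9 is at chr6:52227321-52227620 and Hoxa10, at its upstream start, at chr6:52240805-52241104, both on the minus strand, and Hoxb8 is at chr11:96281655-96281954 on the plus strand. Capitals mark matches on either strand to 4 motifs described next.
Hoxa9: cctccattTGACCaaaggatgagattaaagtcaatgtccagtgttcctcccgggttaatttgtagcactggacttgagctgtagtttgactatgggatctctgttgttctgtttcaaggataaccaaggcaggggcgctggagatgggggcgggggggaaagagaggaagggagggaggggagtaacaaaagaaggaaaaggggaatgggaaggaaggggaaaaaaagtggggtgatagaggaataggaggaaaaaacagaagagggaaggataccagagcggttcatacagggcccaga
Hoxa10: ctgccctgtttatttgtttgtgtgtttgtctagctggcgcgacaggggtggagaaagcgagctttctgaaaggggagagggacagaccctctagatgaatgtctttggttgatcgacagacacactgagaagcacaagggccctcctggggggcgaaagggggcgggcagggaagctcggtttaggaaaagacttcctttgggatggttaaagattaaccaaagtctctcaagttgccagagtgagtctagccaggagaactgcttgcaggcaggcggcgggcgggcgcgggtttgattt
Hoxb8: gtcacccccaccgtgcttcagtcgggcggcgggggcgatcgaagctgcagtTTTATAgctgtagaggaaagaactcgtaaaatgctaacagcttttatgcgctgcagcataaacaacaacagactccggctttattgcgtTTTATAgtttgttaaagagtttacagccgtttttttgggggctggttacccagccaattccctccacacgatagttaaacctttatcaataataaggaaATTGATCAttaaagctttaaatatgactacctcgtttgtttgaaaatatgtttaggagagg

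The motifs were the estrogen response element GGTCANNNTGACC, its half-site GGTCA, the HOX-PBX site TGATNNAT and the TATA box TATAAA, and the half-site lies inside the full element. RefSeq promoters were at hand for 22 of the 39 Hox genes (24 windows). The full estrogen element was in 0 of the 24 windows and in 0.07% of all 32851 promoters. The half-site was in 12 of 24, among them Hoxa9, against 40.5% of all promoters. The HOX-PBX letters were in 4 of 24, those of Hoxa2, Hoxb1, Hoxb8 and Hoxd11, against 8.85% of all. TATAAA was in 4 of 24, at 2 places in Hoxb8, against 13.6% of all promoters. Both places in Hoxb8 read TTTATA, so the match is on the opposite strand. The Hoxa10 window shown holds no match. A second Hoxa10 window, at its downstream start, holds the letters TATAAA, also on the opposite strand. A match is a description of letters and not a site.

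The oviductal stroma expressed a broad middle stretch of the Hox code from all 4 clusters. Of the 39 genes, 29 were at 1 TPM or more in every library and 21 at 5 TPM or more in every library. Summed over all members, Hox RNA was at 606 and 601 TPM in control mice 2 and 3 and at 787, 595 and 621 TPM in knockout-labelled mice 1, 2 and 3. Paralog groups 4 to 8 held 69.6% and 73.0% of it in the controls and 78.3%, 74.3% and 78.0% in the knockout-labelled mice. Groups 1 to 3 held 10.7% to 14% and groups 9 and 10 held 8.78% to 15.5% over the 5 libraries. Groups 11 to 13, the most posterior, held 2.48% and 2.29% in the controls and 1.47%, 1.22% and 0.945% in the knockout-labelled mice. That share was lower in each knockout-labelled library than in both controls, and it rests on genes near 1 TPM. The number of all genes at 1 TPM or more was also lower in each knockout-labelled library than in both controls. Whether the lower share is particular to Hox genes was not tested.

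In each cluster expression fell off toward the highest paralog numbers. The highest-numbered gene at 1 TPM or more in every library was Hoxa10, Hoxb9, Hoxc10 and Hoxd11, and at 5 TPM or more it was Hoxa7, Hoxb7, Hoxc10 and Hoxd10. In HoxC the step fell between neighbours. Hoxc10, best known from the hindlimb and caudal trunk, was at 12.5 to 23.4 TPM, while its neighbour Hoxc11 was at 0.369 to 1.37 TPM. The vaginal gene Hoxa13 was at 0.456 to 1.13 TPM, and Hoxd13 was under 1 TPM in all 5 libraries. Hoxb13, known from the prostate and hindgut, was listed at 0 in control mouse 3 and knockout-labelled mouse 3 and reached 1.68 TPM in control mouse 2.

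**Figure D1:**
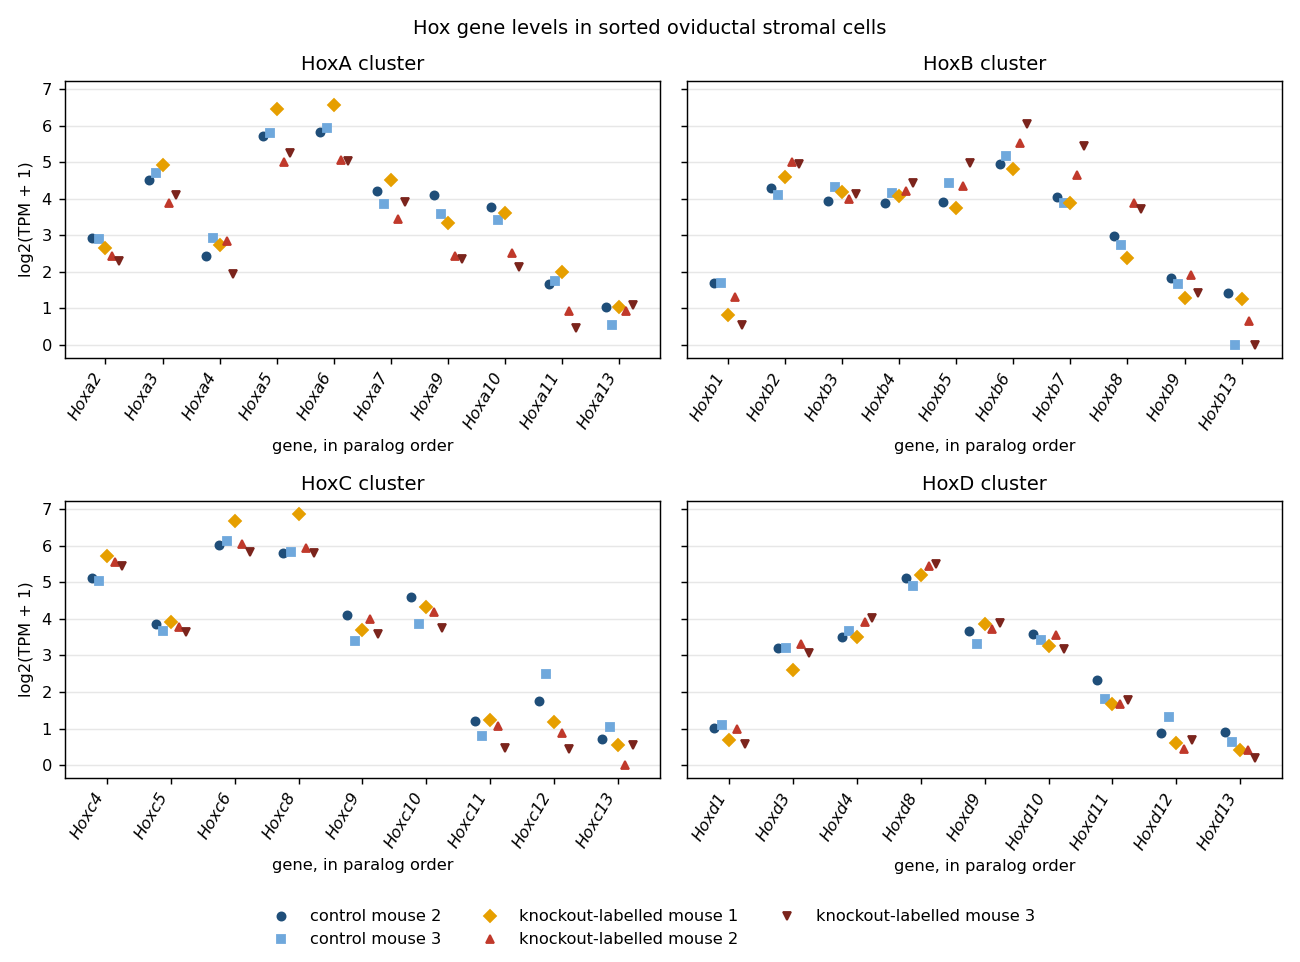
Levels of the Hox genes described here on the log2(TPM + 1) axis, by cluster and in paralog order, with 1 point for each of the 5 libraries. The middle members of each cluster are high, for example Hoxc6 at 56.6 to 102 TPM, and the members numbered 11 to 13 lie near the bottom in all libraries.

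By mean over the 5 libraries, the highest Hox genes were 2 neighbours in HoxC and 2 in HoxA. The order differed between libraries, and in knockout-labelled mouse 3 Hoxb6 was the highest, at 65.6 TPM. Hoxc6 was at 64.6 and 68.8 TPM in control mice 2 and 3 and at 102, 64.8 and 56.6 TPM in knockout-labelled mice 1, 2 and 3. Hoxc8, a gene of the thoracic region, was at 54.6 and 56.1 TPM in the controls, against 117, 60.7 and 55.1 TPM in the knockout-labelled mice. In both genes mouse 1 stood alone at the top while mice 2 and 3 stayed near the controls. Hoxa5 and Hoxa6 are taken up with their cluster below. Ranks of the 39 genes were alike in all libraries: Spearman's rho between pairs of libraries was 0.905 to 0.969, against 0.933 to 0.969 over all 19292 genes tested. These are correlations across genes of the same libraries, which are not independent replicates.

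Control and knockout-labelled libraries were compared with limma on log2(TPM + 1), over genes with at least 1 TPM in at least 2 libraries, and 36 of the 39 Hox genes entered the test. The filter left out Hoxc13, Hoxd12 and Hoxd13. No Hox gene had an adjusted p under 0.05 in either direction (limma, Benjamini-Hochberg over all tested genes), where 0.0104% of all genes passed as higher and 0.0156% as lower. At an unadjusted p under 0.05, 2 of 36 were higher and 3 lower (5.56% and 8.33%), against 3.70% and 9.87% of all genes. The knockout-labelled libraries lay entirely above the controls for 4 members and entirely below them for 6 (11.1% and 16.7%), against 11.9% and 21.9% of all genes. These shares are near those of the whole table. The median log2 difference was -0.08 over the Hox genes and -0.02 over all genes tested.

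Read library by library, HoxA and HoxB stood on opposite sides of the controls in knockout-labelled mice 2 and 3. This difference between clusters is a description and was not tested. Members of HoxA were mostly lower than the controls in knockout-labelled mice 2 and 3, and those of HoxB mostly higher. Summed HoxA RNA was at 193 and 196 TPM in the controls, 271 TPM in knockout-labelled mouse 1, and 112 and 117 TPM in mice 2 and 3. Its share of all Hox RNA was 31.8% and 32.6% in the controls, 34.5% in mouse 1, and 18.7% and 18.8% in mice 2 and 3. Summed HoxB RNA was at 120 and 133 TPM in the controls, 118 TPM in knockout-labelled mouse 1, and 172 and 221 TPM in mice 2 and 3, or 19.8%, 22.1%, 15.0%, 28.9% and 35.5% of Hox RNA in that order. HoxA thus passed from well above HoxB in 3 libraries to below it in the other 2. HoxC, at 191 to 320 TPM, was highest in knockout-labelled mouse 1, and HoxD was at 73.5 to 92.9 TPM.

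**Figure D2:**
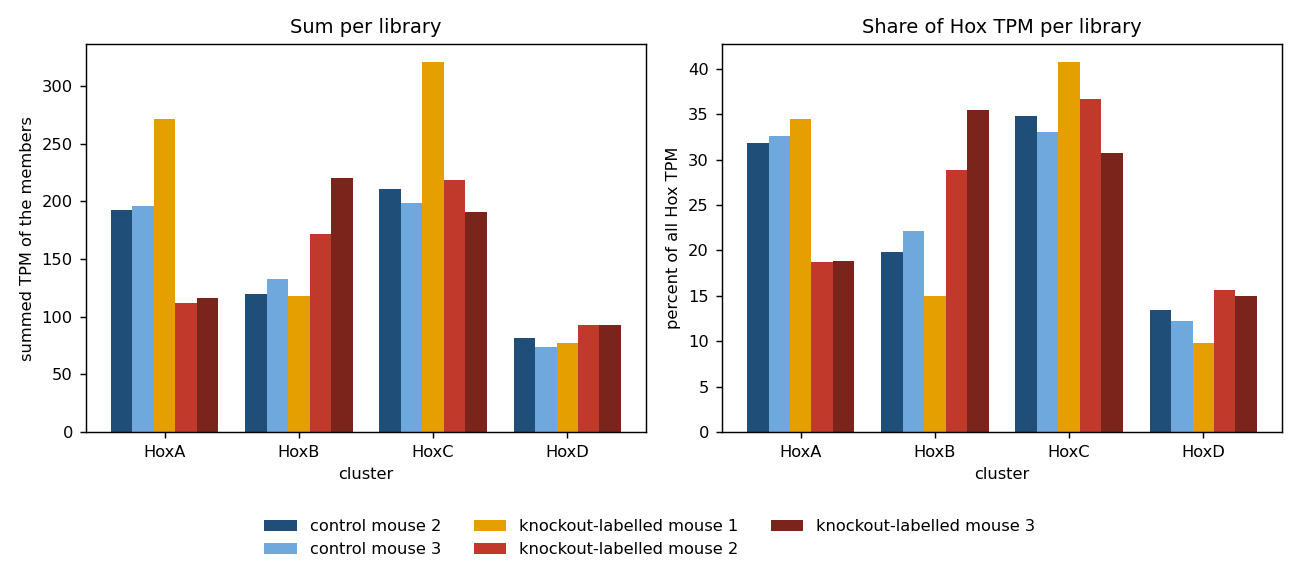
Summed TPM of the members of each Hox cluster (left) and each cluster's percent of all Hox TPM (right), with 1 bar for each of the 5 libraries. In knockout-labelled mice 2 and 3 HoxA takes 18.7% and 18.8% of Hox TPM and HoxB 28.9% and 35.5%, while knockout-labelled mouse 1 keeps 34.5% and 15.0%.

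The order of the libraries by summed HoxB RNA, from knockout-labelled mouse 1 through control mice 2 and 3 to knockout-labelled mice 2 and 3, was also their order by summed epithelial markers. That sum was mostly Ovgp1. Some single markers kept the order, while others, Krt18 and Krt19 among them, did not. Summed HoxA RNA was lowest in the same 2 libraries in which the summed epithelial markers were highest. The part of epithelial or other cells in either cluster's levels was not tested. The median log2 difference was -0.33 over the 11 tested HoxA genes, 10 of which were below 0, and 0.20 over the 10 HoxB genes, 6 of which were above 0. It was 0.01 over 8 HoxC genes, with 5 above 0, and -0.17 over 7 HoxD genes, with 3 above 0. Leaving out knockout-labelled mouse 1 moved these medians to -0.62, 0.49, -0.10 and -0.03, against 0.03 for all genes. Without that mouse, 7 of 11 HoxA genes lay entirely below the controls, where 28.0% of all genes did, and 5 of 10 HoxB genes entirely above, where 34.5% did.

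**Figure D3:**
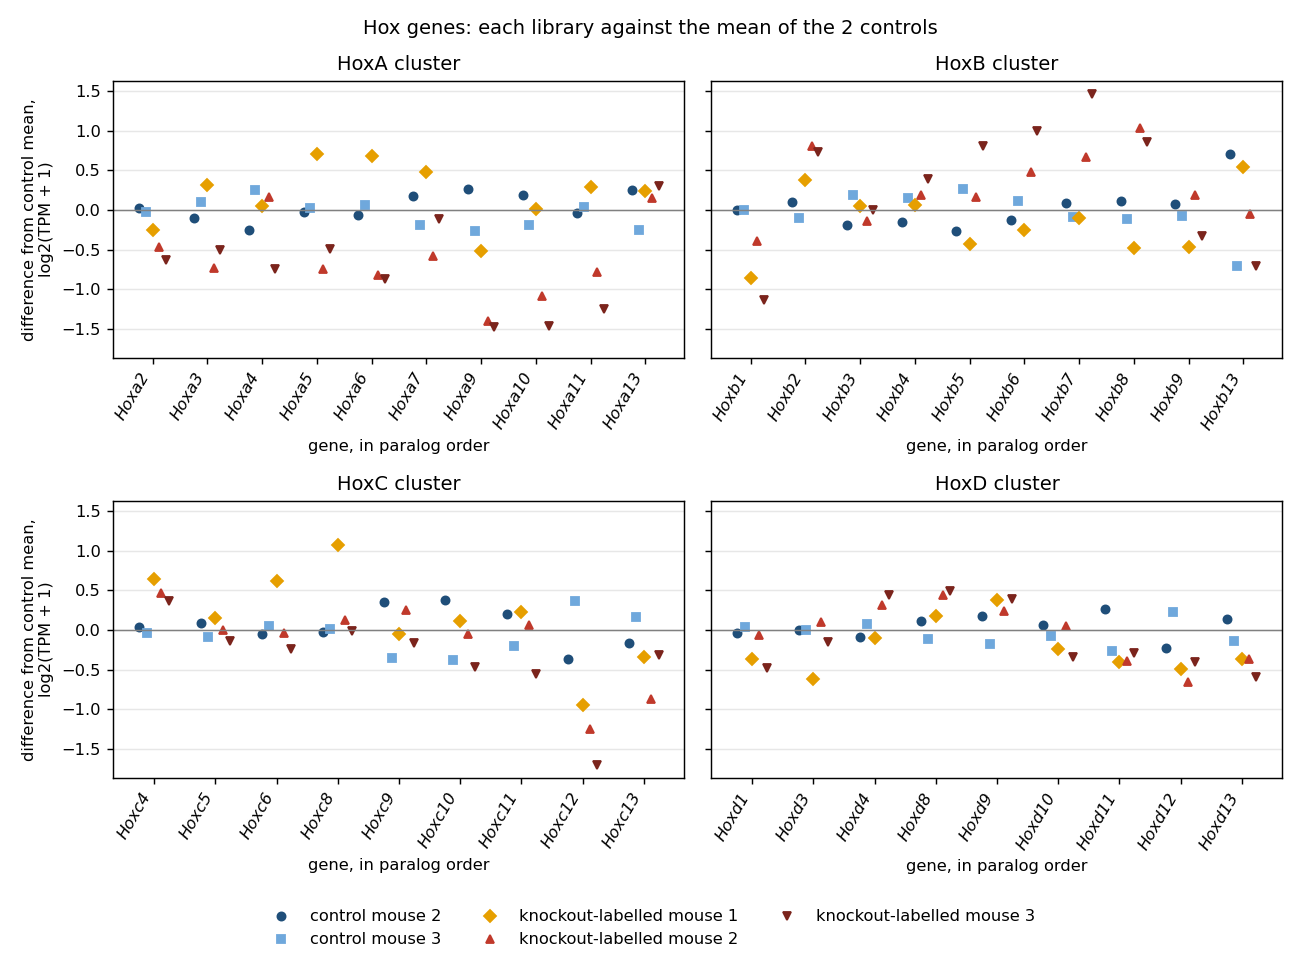
Difference of each library from the mean of the 2 controls, in log2(TPM + 1), for the Hox genes described here by cluster and in paralog order. Knockout-labelled mice 2 and 3 lie below the controls from Hoxa9 to Hoxa11 and above them from Hoxb6 to Hoxb8, and knockout-labelled mouse 1 lies highest from Hoxa5 to Hoxa7 and at Hoxc6 and Hoxc8.

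Within HoxA, Hoxa9 and Hoxa10 were furthest from the controls in knockout-labelled mice 2 and 3. This did not extend to Hoxa13, the last gene of the cluster. It lay 0.24, 0.15 and 0.30 above the control mean in mice 1, 2 and 3, in log2(TPM + 1). Hoxa9, the paralog associated with oviduct identity, was at 16.2 and 10.96 TPM in control mice 2 and 3 and at 9.05, 4.45 and 4.15 TPM in knockout-labelled mice 1, 2 and 3. All 3 knockout-labelled libraries lay below both controls, mouse 1 only a little below. Controls averaged 13.6 ± 3.71 TPM (SD, n = 2), and knockout-labelled mice 5.88 ± 2.75 TPM (SD, n = 3). On the log2 scale the difference was -1.13 (standard error 0.35, limma adjusted p 0.276), and without mouse 1 it was -1.44 (standard error 0.25, limma adjusted p 0.0303).

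Hoxa10, whose product is required for uterine identity and implantation, was at 12.8 and 9.66 TPM in the controls, against 11.2, 4.72 and 3.41 TPM in knockout-labelled mice 1, 2 and 3. Mouse 1 lay between the controls, and mice 2 and 3 lay far below them. The log2 difference was -0.84 (standard error 0.43, limma adjusted p 0.427), and -1.27 without mouse 1 (standard error 0.25, limma adjusted p 0.0398). In Hoxa11, at a lower level, mouse 1 lay above both controls and mice 2 and 3 below them, with 2.20 and 2.38 TPM in the controls and 3.00, 0.908 and 0.386 TPM in the knockout-labelled mice. Its antisense gene Hoxa11os was at 2.21 and 5.02 TPM and at 2.28, 1.05 and 0.348 TPM, and the overlap of their exons leaves the 2 levels linked. Neither passed the test with or without mouse 1.

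The middle HoxA genes set knockout-labelled mouse 1 against mice 2 and 3. Hoxa5, which is known for lung and axial patterning, was at 52.3 and 54.5 TPM in the controls, against 87.6, 31.3 and 37.5 TPM in knockout-labelled mice 1, 2 and 3. Hoxa6, its neighbour, was at 55.8 and 61.0 TPM and at 94.5, 32.8 and 31.6 TPM. In both genes the controls were close together, mouse 1 was above them and mice 2 and 3 below. The log2 difference of Hoxa6 was -0.33 in all libraries (standard error 0.46, limma adjusted p 0.744) and -0.84 without mouse 1 (standard error 0.12, limma adjusted p 0.0240). For Hoxa5 it was -0.18 and, without mouse 1, -0.62 (limma, adjusted p 0.847 and 0.0507). Hoxa7 was at 17.6 and 13.4 TPM in the controls, against 21.9, 9.94 and 14.1 TPM in the knockout-labelled mice, so the groups overlapped with or without mouse 1.

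Among the anterior HoxA genes, Hoxa3 had the highest level. Hoxa3, a gene of pharyngeal and neck structures, was at 21.8 and 25.3 TPM in the controls, against 29.5, 13.8 and 16.4 TPM in the knockout-labelled mice, the same order as Hoxa5. Hoxa2, a hindbrain and branchial arch gene, was at 6.66 and 6.44 TPM in the controls, against 5.34, 4.46 and 3.89 TPM in the knockout-labelled mice. All 3 lay below both controls (log2 difference -0.45, standard error 0.23, limma adjusted p 0.426, and 0.173 without mouse 1). Hoxa4 was at 4.42 and 6.65 TPM in the controls, against 5.70, 6.20 and 2.86 TPM in the knockout-labelled mice, and the groups overlapped.

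In HoxB the genes from Hoxb5 to Hoxb8 were highest in knockout-labelled mouse 3 or mouse 2, and none was above the controls in mouse 1. Hoxb6 was at 29.8 and 35.4 TPM in control mice 2 and 3 and at 27.2, 45.7 and 65.6 TPM in knockout-labelled mice 1, 2 and 3. Hoxb7 was at 15.7 and 13.9 TPM in the controls, against 13.8, 24 and 42.6 TPM in the knockout-labelled mice. Mice 2 and 3 were above both controls in each gene, by unequal amounts, and mouse 1 just below them. Their log2 differences were 0.41 and 0.68 in all libraries (limma, adjusted p 0.592 and 0.489) and 0.73 and 1.07 without mouse 1 (limma, adjusted p 0.0774 and 0.0675).

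Hoxb8, a gene also known from blood cell precursors and microglia, was at 6.88 and 5.72 TPM in the controls, against 4.23, 13.9 and 12.2 TPM in knockout-labelled mice 1, 2 and 3. Its log2 difference was 0.47 (standard error 0.45, limma adjusted p 0.632), and without mouse 1, the only knockout-labelled library below the controls, 0.95 (standard error 0.20, limma adjusted p 0.0445). Hoxb5 was at 14.2 and 20.8 TPM in the controls, against 12.5, 19.4 and 30.9 TPM in the knockout-labelled mice, so only mouse 3 was above both controls.

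Hoxb2 was the HoxB gene with all 3 knockout-labelled libraries above both controls. It is known from the hindbrain, and it was at 18.8 and 16.4 TPM in the controls, against 23.1, 31.4 and 29.9 TPM in knockout-labelled mice 1, 2 and 3. Controls averaged 17.6 ± 1.73 TPM (SD, n = 2), and knockout-labelled mice 28.1 ± 4.41 TPM (SD, n = 3). Between them lay a log2 difference of 0.64 (standard error 0.20, limma adjusted p 0.278) and 0.77 without mouse 1 (standard error 0.15, limma adjusted p 0.0362). The antisense Hoxb3os, which overlaps its exons, was at 6.01 and 8.64 TPM in the controls, against 4.85, 5.20 and 15.7 TPM in the knockout-labelled mice. That order does not follow Hoxb2, since Hoxb3os was below both controls in mice 1 and 2.

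The remaining HoxB genes were nearer the controls or below them. Hoxb3 was at 14.4 and 19.2 TPM in the controls, against 17.2, 15.1 and 16.7 TPM in the knockout-labelled mice, all between the controls. Hoxb4 was at 13.8 and 17.1 TPM in the controls, against 16.1, 17.7 and 20.5 TPM in the knockout-labelled mice, where mouse 1 lay between the controls. Hoxb1, the most anterior, was at 2.23 and 2.22 TPM in the controls, against 0.780, 1.47 and 0.474 TPM in the knockout-labelled mice. All 3 lay below both controls (log2 difference -0.79, standard error 0.32, limma unadjusted p 0.0434 and adjusted p 0.355, and 0.242 without mouse 1). Hoxb9, at 1.42 to 2.81 TPM, overlapped between the groups.

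HoxC and HoxD each had genes that stood apart in both directions. Hoxc4 was at 34.0 and 32.1 TPM in the controls, against 52.2, 45.9 and 42.8 TPM in knockout-labelled mice 1, 2 and 3. All 3 knockout-labelled libraries were above both controls by more than the controls differed (log2 difference 0.49, standard error 0.17, limma adjusted p 0.307, and 0.0954 without mouse 1). Hoxc12, a posterior gene, was at 2.39 and 4.63 TPM in the controls, against 1.27, 0.836 and 0.343 TPM in the knockout-labelled mice. Its log2 difference of -1.30 had the lowest adjusted p of the 36 Hox genes (standard error 0.37, limma adjusted p 0.235), and without mouse 1 the adjusted p was 0.0752. At these levels a few reads can move the value. The other middle HoxC genes overlapped between the groups. Hoxc5 was at 13.5 and 11.8 TPM in the controls, against 14.2, 12.7 and 11.4 TPM in the knockout-labelled mice. Hoxc9 was at 16.2 and 9.53 TPM in the controls, against 12, 15.0 and 11 TPM in the knockout-labelled mice. Hoxc10 was at 23.4 and 13.4 TPM in the controls, against 19.3, 17.2 and 12.5 TPM in the knockout-labelled mice. In Hoxc9 and Hoxc10 the 2 controls were further apart than the group means.

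In HoxD, Hoxd8 and Hoxd9 were above both controls in all 3 knockout-labelled libraries. Hoxd8, the highest gene of the cluster, was at 34.0 and 29.1 TPM in the controls, against 35.7, 43.0 and 44.8 TPM in the knockout-labelled mice (log2 difference 0.37, standard error 0.18, limma adjusted p 0.408, and 0.0883 without mouse 1). Hoxd9 was at 11.7 and 8.90 TPM in the controls, against 13.6, 12.3 and 13.8 TPM in the knockout-labelled mice, a separation narrower than the gap between the controls. Toward the posterior end, Hoxd11, a limb and tail gene, was at 4.03 and 2.48 TPM in the controls, against 2.16, 2.20 and 2.42 TPM in the knockout-labelled mice, again with a gap between the controls larger than that between the groups. Hoxd10 was at 10.9 and 9.82 TPM in the controls, against 8.65, 10.7 and 8 TPM in the knockout-labelled mice, with mouse 2 between the controls. Hoxd3 and Hoxd4, which share exons, overlapped between the groups. Hoxd3 was at 8.31 and 8.28 TPM in the controls, against 5.05, 8.99 and 7.35 TPM in the knockout-labelled mice. Hoxd4 was at 10.4 and 11.8 TPM in the controls, against 10.3, 14 and 15.3 TPM in the knockout-labelled mice. Hoxd1 was at 1.02 and 1.14 TPM in the controls, against 0.490 to 0.995 TPM in the knockout-labelled mice. The 3 genes left out by the filter, Hoxc13, Hoxd12 and Hoxd13, reached 1.49 TPM at most, and each was highest in a control.

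Without knockout-labelled mouse 1, 5 of 35 tested Hox genes passed an adjusted p of 0.05. Hoxa6, Hoxa9 and Hoxa10 fell (8.57% of those tested, against 2.63% of all genes) and Hoxb2 and Hoxb8 rose (5.71%, against 5.35% of all genes). The 3 genes that fell all belong to HoxA, and genes of 1 cluster are not independent of each other. Mouse 1, at 28.9 TPM, was the only knockout-labelled library with Esr1 below the controls, which had 83.3 and 77.6 TPM. Knockout-labelled mice 2 and 3, kept in this fit, had Esr1 at 85.0 and 170 TPM. These calls therefore do not set libraries with lowered Esr1 RNA against controls. The choice to give this fit beside the other was made with earlier results known.

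The cofactors of HOX proteins were abundant. Meis1 was at 125 to 149 TPM over the 5 libraries, above every Hox gene in each. Of the 9 genes of the PBX, MEIS and PKNOX families, 0 passed the adjusted threshold, and 0 were higher and 1 lower at an unadjusted p under 0.05, where 3.70% and 9.87% of all genes were. The median log2 difference was 0.09. The lower gene was Meis3, at 19.3 and 21.4 TPM in the controls, against 14.9, 10.3 and 10.9 TPM in knockout-labelled mice 1, 2 and 3 (log2 difference -0.73, standard error 0.22, limma adjusted p 0.261). Without mouse 1 it fell by 0.88 (limma, adjusted p 0.0336). Pbx3 was at 15.5 and 15.6 TPM in the controls, against 13.1, 31.6 and 32.4 TPM in the knockout-labelled mice, which set mouse 1 apart as in HoxB. Without mouse 1 Pbx3 rose, by 1.00 on the log2 scale (limma, adjusted p 0.0206).

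Several retinoic acid enzymes lay outside the range of the controls. Of 18 tested retinoic acid and Cdx genes, 0 passed the adjusted threshold, and 3 were higher and 2 lower at an unadjusted p under 0.05, where 3.70% and 9.87% of all genes were. Their median log2 difference was -0.01. Without mouse 1, 3 rose and 0 fell at the adjusted threshold, where 5.35% of all genes rose and 2.63% fell. Cyp26b1, which degrades retinoic acid, was at 4.15 and 8.83 TPM in the controls, against 18.5, 18.2 and 18.9 TPM in knockout-labelled mice 1, 2 and 3 (log2 difference 1.46, standard error 0.29, limma adjusted p 0.160). Cyp26a1, an enzyme of the same kind, was at 14.3 and 7.15 TPM in the controls, against 4.17, 61.7 and 77.8 TPM in the knockout-labelled mice. Mice 2 and 3 were far above both controls and mouse 1 below them. The summed epithelial markers lay on the same sides of the controls, and the part of epithelial cells in Cyp26a1 was not tested. Without mouse 1 Cyp26a1 rose by 2.66 and Cyp26b1 by 1.46 on the log2 scale (limma, adjusted p 0.0152 and 0.0479).

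The enzymes that make retinoic acid went in different directions. Aldh1a1 was at 38.5 and 31.8 TPM in the controls, against 150, 90.4 and 68.2 TPM in the knockout-labelled mice, and Aldh1a3 at 44.8 and 64.4 TPM and at 152, 84.7 and 164 TPM. Both were above the controls in all 3 libraries (log2 differences 1.45 and 1.24, limma adjusted p 0.192 and 0.211). Without mouse 1 Aldh1a1 rose by 1.15 on the log2 scale (limma, adjusted p 0.0264), and Aldh1a3 had an adjusted p of 0.0897 (limma). Aldh1a2, the main enzyme of mesenchyme, was at 64.3 and 53.3 TPM in the controls, against 27.4, 41.1 and 39.4 TPM in the knockout-labelled mice, below both (log2 difference -0.71, limma adjusted p 0.281, and 0.0715 without mouse 1). Gdf11, a ligand that sets the trunk-to-tail transition, was at 8.89 and 9.69 TPM in the controls, against 5.60, 5.47 and 5.69 TPM in the knockout-labelled mice (log2 difference -0.64, limma adjusted p 0.279, and 0.102 without mouse 1). Of the Cdx genes, Hox activators of the tail end, the highest value was 2.14 TPM, in Cdx1 of knockout-labelled mouse 2.

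**Figure D4:**
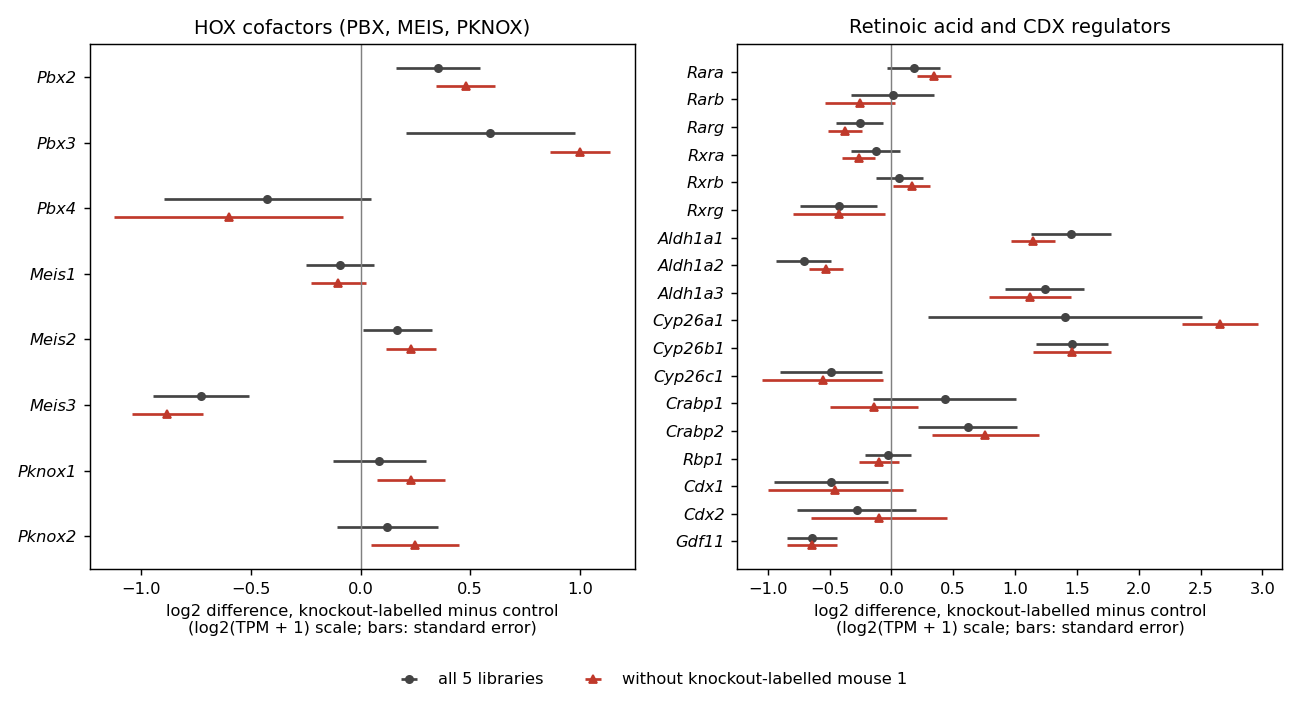
Log2 difference, knockout-labelled minus control, on the log2(TPM + 1) scale for HOX cofactors (left) and 18 retinoic acid and Cdx genes (right), with standard errors as bars. Circles are fits to all 5 libraries and triangles fits without knockout-labelled mouse 1, which move Pbx3 from 0.59 to 1.00 and Cyp26a1 from 1.40 to 2.66.

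Genes of the Polycomb and MLL complexes keep Hox genes silent or active. Of 24 tested, 0 passed the adjusted threshold with or without mouse 1, and 0 were higher and 1 lower at an unadjusted p under 0.05, where 3.70% and 9.87% of all genes were. The median log2 difference was 0.05. The lower gene was Kdm6b, a demethylase that removes the Polycomb mark, at 76.5 and 92.5 TPM in the controls, against 58.8, 59.9 and 53.0 TPM in the knockout-labelled mice (log2 difference -0.55, standard error 0.17, limma adjusted p 0.263, and 0.0656 without mouse 1). Ezh2, the Polycomb methyltransferase, was at 18.9 to 23.0 TPM over the libraries. Of 10 non-coding RNAs of the clusters in the table, 8 were tested and 0 had an unadjusted p under 0.05. Hotair, transcribed from HoxC, was at 0.291 to 0.804 TPM, and Hottip, from the 5′ end of HoxA, at 1.58 and 1.17 TPM in the controls, against 1.20, 1.06 and 0.0894 TPM in the knockout-labelled mice.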

How the data were processed

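RNA from sorted YFP-positive oviductal stromal cells of 5 mice was measured with a low-input SMARTer mRNA kit, per the labels' protocols. The authors deposited TPM per gene for 23857 genes, which sum to 1000000 in each library. STAR is in the deposited table's name and mm10 in the submitters' processing notes. The STAR version, counter, strand setting and annotation are not given in the sources used here. TPM keeps no depth, so no counting intervals are given, and each value is a share that falls when other genes take more. Nothing says whether replicates came from separate sorts, so p-values measure the spread between these 5 libraries.

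Groups and mouse numbers come from the labels. The scale was log2(TPM + 1), and the model was that of limma 3.58.1, run in R 4.3.3 (lmFit, eBayes with trend, genotype as the only term) over all 19292 genes with at least 1 TPM in at least 2 libraries, two-sided, with Benjamini-Hochberg adjustment at 0.05. This scale understates changes of low genes. The fit was also run on simulated data with independent noise of equal spread in every library. That run held no outlying library such as knockout-labelled mouse 1, so it does not test the fit for such data. Counts, sums and medians cover all members, and 2 genes, 1 of them a Hox gene, are not reported here singly or in the plots. Per-library values are given for members with a mean of at least 5 TPM or an unadjusted p under 0.05, and for those needed to read a cluster. From the lists, genes with an unadjusted p under 0.05 and the 3 highest could be named; Pbx3, Cyp26a1, Ezh2, Hotair, Hottip, Evx1, Evx2, Emx2, Pax2, Wnt4, Atp5g3, the Cdx genes and the antisense genes were added after their values were seen. All 39 symbols matched GENCODE M21 and RefSeq. Python 3.11.15 and pandas 2.3.3 read positions and promoters. The members, lists and alternatives were chosen with earlier results of these data known. Results were recomputed with another pseudocount and filter, 2 other scalings, another variance model, library weights, a block on mouse number, and each library left out. The motifs and the promoters shown were chosen after the values were seen.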

Additional observations from a re-analysis of the deposited data

How the results depend on the processing

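No Hox gene passed the adjusted threshold with a pseudocount of 0.1, no filter, quantile normalization, rescaling without Rpph1 and Rn45s or eBayes without trend. Library weights gave 1 higher and 1 lower. The mouse number as a replicate block gave 3 higher and 4 lower. Shares of all genes passing were not computed for the weighted and block fits, so these counts have no background beside them. The block rests on mice 2 and 3. Deviations of same-numbered mice from their group means correlated at -0.060 and -0.072 across genes, which gives no sign of pairing. This check is weak and cannot exclude pairing. The deviations of the controls mirror each other, and the knockout-labelled mean includes mouse 1. Leaving out 1 library gave 0 to 2 higher and 0 to 3 lower, the highest without knockout-labelled mouse 1. In fits without a control the lone control is assumed to vary like the rest.

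The HoxA median stayed below 0 and the HoxB median above 0 in every alternative; leaving out 1 library they ran from -0.62 to -0.21 and from 0.07 to 0.49. The HoxC median (0.01) was -0.0155 with quantile normalization, -0.0460 without Rpph1 and Rn45s, -0.0128 with weights and -0.10 with the block, and ran from -0.19 to 0.18. The HoxD median (-0.17) was 0.13 with quantile normalization and ran from -0.29 to 0.0209. The median of all Hox genes ran from -0.15 to 0.0057. Retinoic acid and Cdx genes had a median of 0.0564 with quantile normalization and ran from -0.12 to 0.10, 0.02 without control mouse 3. Polycomb and MLL genes had -0.0469 with quantile normalization and -0.0106 without Rpph1 and Rn45s. Hoxa5 was 0.10 without knockout-labelled mouse 2. The cause was not tested. Of the other values, for single genes and lists, 254 kept direction and side of the threshold, 28 came to pass it and 6 reversed, as given here. At 0.5 TPM and 5 TPM, 29 and 21 Hox genes were detected in every library. Depth limits genes near 1 TPM.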

Other observations

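Genes of a list that flank the Hox clusters, at 8.75 to 757 kb from them in GENCODE M21, were read beside the members. Of 17 tested, 0 passed the adjusted threshold (limma), and 3 were higher and 0 lower at an unadjusted p under 0.05, where 3.70% and 9.87% of all genes were. Without knockout-labelled mouse 1, 4 of 17 rose and 0 fell at the adjusted threshold (Cbx5, Calcoco1, Hibadh and Atp5g3; limma adjusted p 0.0402, 0.0333, 0.025 and 0.0336), where 5.35% of all genes rose and 2.63% fell. Cbx5, which encodes heterochromatin protein HP1 alpha and lies 155 kb from HoxC, was at 56.9 and 45.3 TPM in control mice 2 and 3 and at 85.8, 83.0 and 86.3 TPM in knockout-labelled mice 1, 2 and 3 (log2 difference 0.73, standard error 0.17, limma adjusted p 0.192). Hibadh, an enzyme of valine breakdown 285 kb from HoxA, was at 92.6 and 89.4 TPM in the controls, against 103, 147 and 156 TPM in the knockout-labelled mice, above both controls where the HoxA genes of mice 2 and 3 were mostly below them. Calcoco1, which encodes a coiled-coil coactivator 199 kb from HoxC, was at 55.3 and 59.7 TPM in the controls, against 80.0, 88.1 and 102 TPM in the knockout-labelled mice (log2 difference 0.63, limma adjusted p 0.224). The homeobox genes Evx1 and Evx2, at the posterior ends of HoxA and HoxD, were also read. Evx1 was at 1.28 and 1.96 TPM in the controls, against 0.954, 0.823 and 0.447 TPM in the knockout-labelled mice. Evx2 was at 0.876 and 1.36 TPM in the controls, against 0.440, 0.257 and 0.119 TPM, and was left out by the filter. All 3 knockout-labelled libraries were below both controls in each, as in Hoxd11 to Hoxd13 and in 21.9% of all genes tested.

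Patterning genes of the reproductive tract outside the clusters included 3 higher and 2 lower at an unadjusted p under 0.05 among 19 tested, with 0 past the adjusted threshold (limma), where 3.70% and 9.87% of all genes were higher and lower at that unadjusted p. Without knockout-labelled mouse 1, 4 rose (Wnt5a, Pax2, Amhr2 and Nr2f2, with limma adjusted p 0.0246, 0.0246, 0.0309 and 0.0374). In that fit 2 fell (Osr2 and Wnt4, with limma adjusted p 0.0293 and 0.0319). Of all genes, 5.35% rose and 2.63% fell there. Pax2, like the summed epithelial markers, was below both controls in knockout-labelled mouse 1 and above them in mice 2 and 3. Wnt5a, a ligand of stromal outgrowth and tract patterning, was at 40.2 and 33.7 TPM in the controls, against 62.4, 68.5 and 81.0 TPM in the knockout-labelled mice (log2 difference 0.91, limma adjusted p 0.162). Amhr2, the receptor for anti-Müllerian hormone, was at 8.89 and 7.59 TPM and at 17.7, 18.2 and 17.1 TPM (log2 difference 1.02, limma adjusted p 0.141). The summed granulosa cell markers were also above both controls in these 3 libraries. What part cells other than stroma had in these levels was not tested. Nr2f2, a nuclear receptor of mesenchyme, was at 92.0 and 101 TPM and at 156, 162 and 143 TPM (log2 difference 0.66, limma adjusted p 0.197). Osr2, a zinc finger factor, was at 199.5 and 219 TPM in the controls, against 178, 117 and 82.7 TPM in the knockout-labelled mice, with mouse 1 nearest the controls (log2 difference -0.80, limma adjusted p 0.345). Tbx4, a limb and lung T-box factor, was at 3.01 and 3.76 TPM, against 1.12, 2.53 and 1.24 TPM (log2 difference -0.77, limma adjusted p 0.366, and 0.267 without mouse 1). Emx2, a homeobox gene known as a HOXA10 target in the endometrium, was at 65.2 and 62.8 TPM and at 58.1, 67.2 and 71.6 TPM, with overlapping groups.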
